A study of Mus musculus with 16 samples.

Results

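CD8 T cells from tumours of vehicle-treated mice were compared between day 10 and day 17 after tumour injection. The comparison covered the 9530 genes that averaged at least 16 CPM (read counts scaled to a common library total, with TMM factors) in 8 vehicle libraries. These were 9530 of the 17414 genes tested and of the 24028 in the table. At the edge of that minimum, B3galt2 and Pgpep1 averaged just over 16 CPM and were kept, while Zfp82 and Rprd1a lay just under it and were not.

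The tumour was TS/A, a mammary adenocarcinoma line injected into a mammary pad of BALB/c mice. Both groups received vehicle daily from day 7, so that the tumours of 4 libraries were taken after 3 days and those of the other 4 after 10 days of vehicle. Cells were sorted as live, CD45.2-positive, CD8-positive and CD4-negative, a gate shared by every group. The spread in the test also came from 8 libraries of mice given entinostat, a histone deacetylase inhibitor, at 20 mg/kg on the same days, and those mice served as a parallel course. Nothing in the labels ties the 4 libraries of a group to separate mice, so the p-values rest on a spread among samples that may be partly technical. Any difference of harvest, sorting or library batch between the days cannot be told apart from time. This also holds for the entinostat course.

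CD8 T cells recognise peptide on MHC class I through the T cell receptor, and on engagement they switch on immediate early genes, divide, and make interferon gamma, TNF and cytotoxic granule proteins. In tumours, prolonged stimulation is known to raise inhibitory receptors such as PD-1 and TIM-3 and to dampen effector output, and TGF-beta is a major suppressive cytokine of that setting. Heat shock chaperones refold damaged proteins, and the guanylate-binding and immunity-related GTPases are induced by interferon gamma.

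Vehicle libraries held 3640768 to 4227704 counts at day 10 and 2842099 to 6975904 at day 17. Of the defining markers of the gate, Cd8a stood at 413, 432, 430 and 401 CPM at day 10 and at 349, 348, 368 and 414 CPM at day 17, with Cd4 at 17.9 to 38.4 and 43.8 to 54.8 CPM. Transcripts of other cells were present on both days. The 10 MHC class II markers of antigen-presenting cells summed to 386 to 909 CPM at day 10 and 959 to 1483 CPM at day 17, without overlap. Of the 9 of at least 16 CPM 0 passed edgeR or cyclic loess scaling, and 5 were higher at an unadjusted p under 0.05. The 18 markers of plasmacytoid dendritic cells were all detected and summed to 1891 to 3661 CPM at day 10 and 3429 to 4244 CPM at day 17 (scaled by library total), with Siglech, a lectin that defines these cells, at 201 to 402 and 353 to 514 CPM. The 12 fibroblast markers summed to 176 to 687 CPM at day 10 and 609 to 2697 CPM at day 17, ranges that overlapped, with Fn1, fibronectin, at 4.37 to 246 and 271 to 1465 CPM. Thy1, a member of that list that T cells also express, alone held 143 to 159 CPM at day 10 and 125 to 158 CPM at day 17. It made up most of the fibroblast sums of day 10 replicates 1, 2 and 3 (182, 176 and 177 CPM). The 18 macrophage and monocyte markers summed to 361 to 611 CPM at day 10 and 574 to 757 CPM at day 17, overlapping. Among them Cd68, a lysosomal protein of phagocytes, stood at 50.9 to 106 and 112 to 120 CPM, Lyz2, lysozyme, at 0.473 to 10.5 and 3.87 to 66.3 CPM, and the complement genes C1qb and C1qc at no more than 1.37 CPM. What part these other cells had in the changes below was not tested. Reads assigned to odorant receptors (olfactory and vomeronasal), which serve here as a measure of background, averaged 1437 ± 581 CPM at day 10 and 3292 ± 2032 CPM at day 17 (SD, n = 4). In bulk libraries fewer cells of a type and less RNA per cell cannot be told apart.

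**Figure D1:**
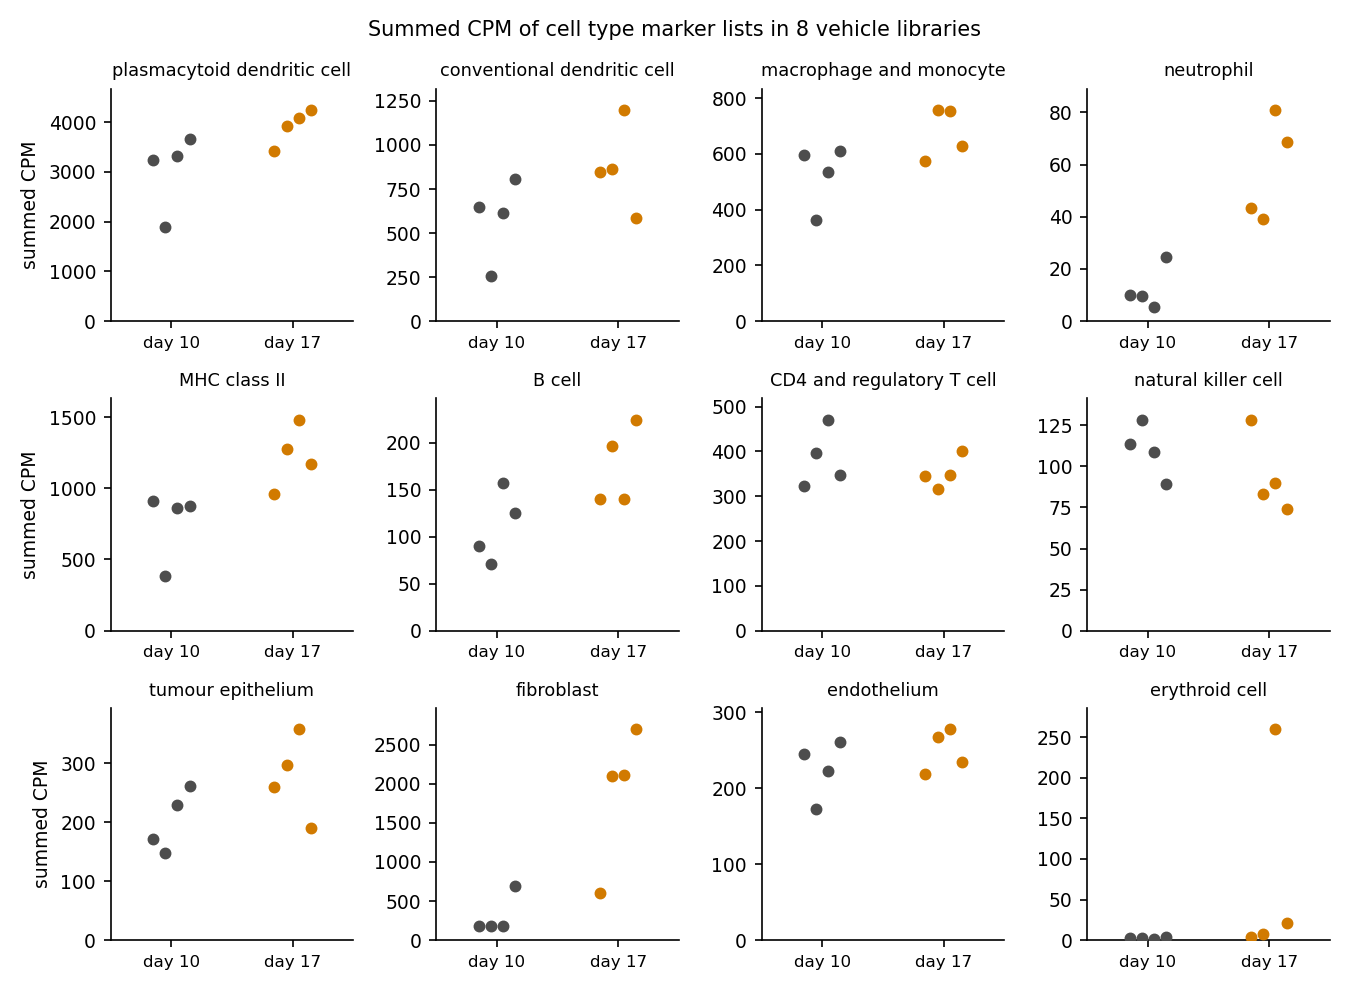
Summed CPM (y axis, scaled by library total) of 12 cell type marker lists in the 4 vehicle libraries of day 10 and the 4 of day 17, one point per library. Neutrophil markers (39.0 to 80.9 CPM at day 17, at most 24.4 CPM at day 10) and MHC class II markers do not overlap between the days. The neutrophil gap rests on Il1r2, at 2.31 to 5.44 CPM at day 10 and 14.8 to 44.7 CPM at day 17. Fibroblast markers (609 to 2697 CPM at day 17, 176 to 687 CPM at day 10), B cell, endothelial and CD4 T cell markers overlap. Of the fibroblast sums at day 10, Thy1, which T cells also express, holds 143 to 159 CPM. At day 17 Fn1 alone holds 271 to 1465 CPM of them.

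Between the days 724 of the 9530 genes passed the edgeR quasi-likelihood test at an adjusted p of 0.05 (7.6%), of which 98 were higher (1.03%) and 626 lower (6.57%) at day 17. Over all 17414 genes tested, 961 passed (5.52%), 329 higher (1.89%) and 632 lower (3.63%). The 2 days did not overlap in 241 of the 9530 genes that were higher (2.53%) and 1494 that were lower (15.7%) at day 17, and 2532 had an unadjusted p under 0.05 (26.6%). The lower genes had a median log2 fold change of −0.52 and a median level of 198 CPM, the higher genes 1.63 and 27.9 CPM. These sizes rest partly on the minimum, since 62 of the 98 higher genes averaged under 16 CPM at day 10 and were kept through day 17, against 5 of the 626 lower genes kept through day 10. The 36 higher genes at or above the minimum on both days had a median of 1.09. The share of lower genes rose with level. In genes of 16 to 32 CPM 57 were higher and 9 lower of 1795, and in genes of at least 256 CPM 1 was higher and 205 lower of 738. The median log2 fold change went from 0.19 in the former to −0.29 in the latter, and was −0.11 over all 9530 genes. Of genes of 128 to 256 CPM 13.7% were lower, and of genes of at least 256 CPM 27.8%. The counts of gene lists below are to be set beside these shares. Whether a list departed from other genes of its level was not tested.

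**Figure D2:**
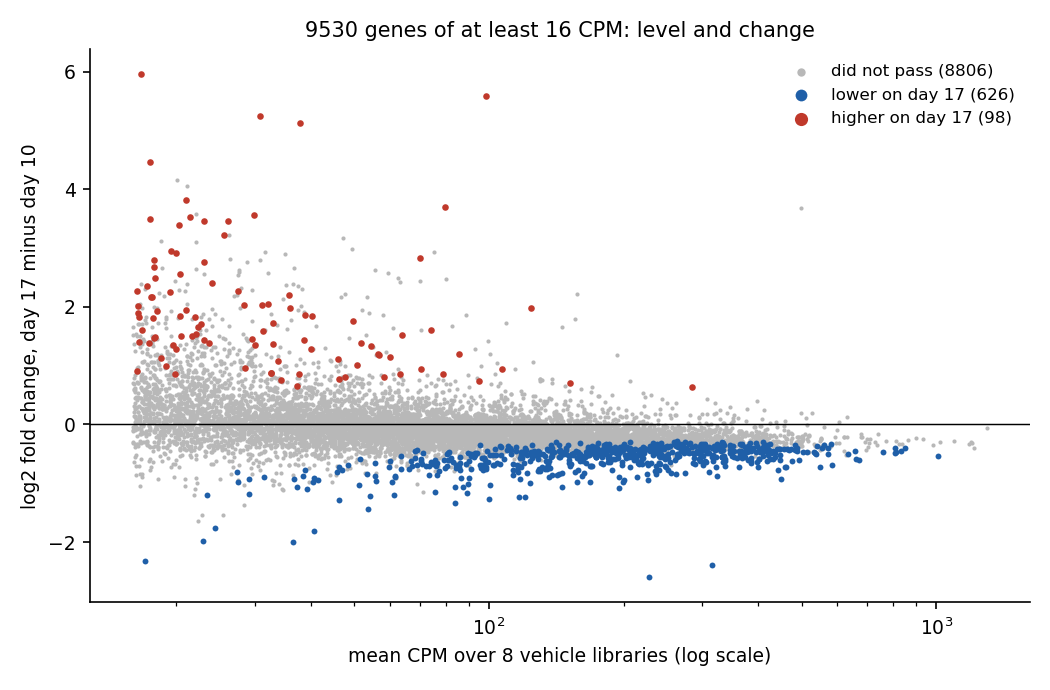
Log2 fold change of day 17 against day 10 (y axis) by mean CPM over 8 vehicle libraries (x axis, log scale), one point per gene, with the 626 lower genes in blue, the 98 higher genes in red and those that did not pass in grey. The cloud slopes from a median of 0.19 at 16 to 32 CPM to −0.29 at 256 CPM or more, with the blue points mainly at the right.

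The split depended on scaling. With library size alone 113 genes were higher and 198 lower, so that 36.3% of calls were higher against 13.5% under TMM, and the median of the 9530 genes moved to 0.03. With only genes of at least 16 CPM in the fit, an alternative chosen after seeing the data, 147 were higher and 310 lower (32.2% higher). The number of calls also rested on single libraries. It was 413 without vehicle day 10 replicate 1, 308 without replicate 2, 183 without replicate 3 and 1248 without replicate 4. It was 1676 without vehicle day 17 replicate 1, 284 without replicate 2 and 473 without replicate 3. Day 10 replicate 4 and day 17 replicate 1 overlapped on the first principal component (9.40 and 1.80), where the other libraries of their days lay at −47.5 to −27.7 and 25 to 38.1. Of the 724 genes, 176 were called in all 8 fits that left out a vehicle library (14 higher, 162 lower). With the receptor reads as a covariate 99 were higher and 471 lower. Cyclic loess, which removes a trend of change with level and was chosen after seeing the data, gave 33 higher and 118 lower. Of 87 called genes that were followed one by one under each alternative, 36 kept their call with cyclic loess and 64 with library size alone.

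Of the genes called lower, those for inducible HSP70 had the largest falls. Hspa1a and Hspa1b, 2 adjacent genes for the stress-inducible HSP70, together stood at 961, 993, 904 and 822 CPM at day 10 and at 110, 194, 86.0 and 278 CPM at day 17, a 5.51-fold difference of means. Every day 17 library lay far below every day 10 library. The genes are near-identical, so reads may have been divided between them arbitrarily, and the log2 fold changes of −2.60 ± 0.38 (SE) for Hspa1a and −2.40 ± 0.37 for Hspa1b (edgeR adjusted p = 0.0025 and 0.00264) are uncertain one by one. Dnajb1, the HSP40 partner that hands clients to HSP70 (chromosome 8, 83608175 to 83612653, GRCm38), gave 262, 297, 253 and 249 CPM at day 10 and 148, 117, 130 and 141 CPM at day 17. Its log2 fold change of −0.99 ± 0.10 had the smallest p of all genes (edgeR adjusted p = 0.00024). Both days were tight and apart.

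Of 19 heat shock chaperones at this level 7 fell (36.8%) and the other 12 did not pass. The median log2 fold change of the list was −0.32. Lower were 6.57% of all 9530 genes, 13.7% of those of 128 to 256 CPM and 27.8% of those of at least 256 CPM. Hsp90aa1, the inducible HSP90, fell by 0.47 ± 0.10 on the log2 scale and Dnajb6, a co-chaperone that limits aggregation, by 0.50 ± 0.11. Hsp90aa1 lost its call in 5 of the 20 alternatives. Among these were library size alone (edgeR adjusted p = 0.082), only the vehicle libraries (0.056) and cyclic loess (limma adjusted p = 0.32). With vehicle day 10 replicate 3 left out Dnajb6 was no longer called (edgeR adjusted p = 0.0687). The count was 4 without that library, 8 without day 10 replicate 4 or day 17 replicate 1, 4 with library size alone and 3 with cyclic loess, which kept Hspa1a, Hspa1b and Dnajb1.

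The promoters of the HSP70 pair are shown because these genes had the largest falls, with letters from RefSeq on GRCm38.p6, 250 bases up to the transcription start. The heat shock element pair GAANNTTC or TTCNNGAA, each its own reverse complement, was searched on both strands and is in capitals. The motif was chosen after the values were seen.
Hspa1a, chr17:34972157-34972406, minus strand: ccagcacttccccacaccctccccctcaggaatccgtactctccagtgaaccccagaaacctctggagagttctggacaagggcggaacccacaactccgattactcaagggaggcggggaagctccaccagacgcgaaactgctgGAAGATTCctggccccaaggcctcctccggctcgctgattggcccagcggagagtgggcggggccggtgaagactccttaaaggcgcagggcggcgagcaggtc
Hspa1b, chr17:34959239-34959488, minus strand: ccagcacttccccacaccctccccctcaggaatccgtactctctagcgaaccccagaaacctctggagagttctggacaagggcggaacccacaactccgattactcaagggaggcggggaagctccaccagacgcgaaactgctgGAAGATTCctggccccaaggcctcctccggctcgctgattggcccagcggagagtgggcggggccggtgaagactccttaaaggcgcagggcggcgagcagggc
The windows were identical at 247 of 250 bases, and each held 1 match starting 104 bases before the start. Such a match was present in 9 of the 14 heat shock genes of at least 16 CPM with a window in the table (64.3%), and in 14.5% of all 27025 genes with one. Both Dnajb1 windows lacked these letters. A match is a description of the sequence and not a binding site.

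Some immediate early and activation-induced genes fell. Of 27 AP-1, NR4A, EGR and related feedback genes at this level 10 fell (37.0%). The other 17 did not pass, and the list median was −0.34. Lower were 6.57% of all 9530 genes, 13.7% of those of 128 to 256 CPM and 27.8% of those of at least 256 CPM. Fosl2, an AP-1 subunit, fell from 572 ± 68.8 to 348 ± 43.5 CPM (SD, n = 4; log2 fold change −0.72 ± 0.11, edgeR adjusted p = 0.00264). Nfkbiz, an atypical IkappaB protein, fell by 0.73 ± 0.14. Dusp2, a phosphatase of MAP kinases, fell by 0.62 ± 0.13 and Nfkbid, another atypical IkappaB, by 0.95 ± 0.21. Those last calls were lost without vehicle day 10 replicate 3 (edgeR adjusted p = 0.0585 and 0.0791), and that of Nfkbid also without day 17 replicate 2 (0.0536). The list count was 2 without vehicle day 10 replicate 3, 3 without day 17 replicate 2, 4 and 5 without day 10 replicates 1 and 2, and 6 without day 17 replicate 3. With library size alone 4 were lower, and with cyclic loess 0 were lower and 1 was higher, with Fosl2 and Nfkbiz no longer called (limma adjusted p = 0.0828 and 0.0596).

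Some genes of T cell receptor signalling also fell. Of 23 members of the receptor complex and its signalling chain 9 fell (39.1%) and the other 14 did not pass. Lower were 6.57% of all 9530 genes and 27.8% of those of at least 256 CPM. The list median was −0.34, against −0.29 for genes of at least 256 CPM, and was −0.06 with cyclic loess. Ptpn22, a phosphatase that restrains receptor signalling, stood at 511, 518, 516 and 425 CPM at day 10 and 338, 348, 323 and 381 CPM at day 17 (log2 fold change −0.50 ± 0.10, edgeR adjusted p = 0.0106). The days did not overlap, and day 10 replicate 4 was the lowest of its day. Fyn, a proximal kinase, fell by 0.44 ± 0.09 and Sh2d2a, the adaptor TSAd, by 0.47 ± 0.10, calls lost without vehicle day 10 replicate 3 (edgeR adjusted p = 0.0518 and 0.0644). The list count was 1 without that library, 3 and 6 without day 10 replicates 2 and 1, 5 and 6 without day 17 replicates 2 and 3, 2 with library size alone and 0 with cyclic loess. Cd3e, the CD3 epsilon chain, stood at −0.30 ± 0.13 (edgeR adjusted p = 0.169), Cd8a at −0.18 ± 0.13 (0.367) and Cd8b1, the CD8 beta chain, at −0.29 ± 0.17 (0.276), none past the threshold and all above 0 with cyclic loess.

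**Figure D3:**
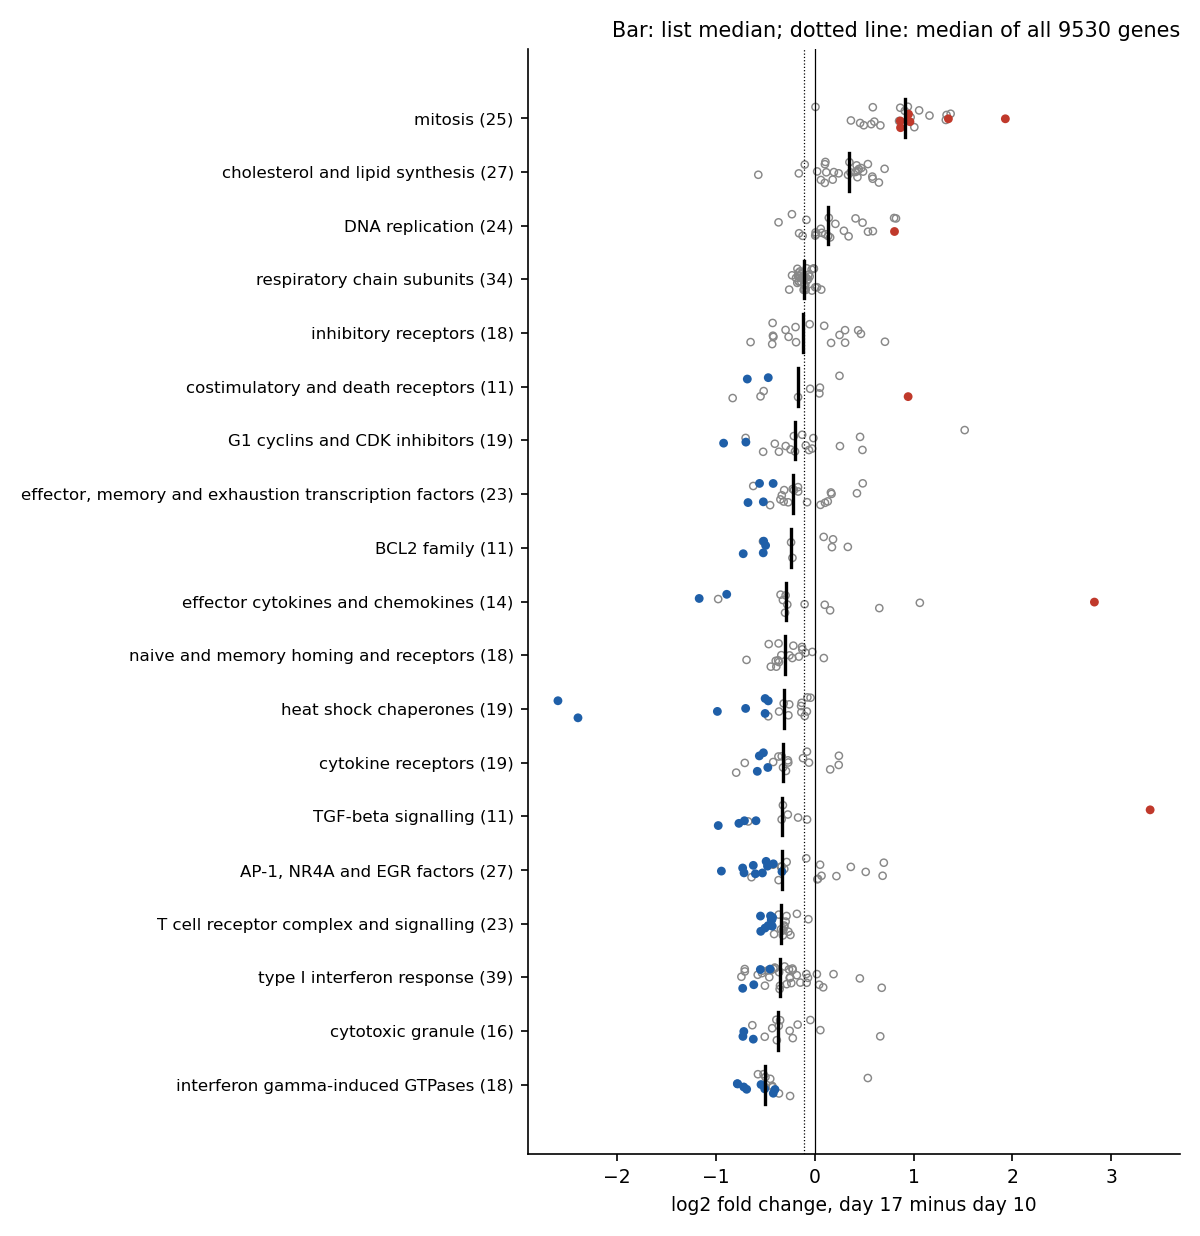
Log2 fold change of day 17 against day 10 (x axis) for members of at least 16 CPM of 19 gene lists, with the number of members in brackets, one point per gene, filled where it passed (blue lower, red higher). Black bars give list medians, from −0.50 for the interferon gamma-induced GTPases to 0.91 for mitosis, and the dotted line the median of all 9530 genes, −0.11.

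Interferon gamma fell, as did some of the GTPases it induces. Ifng stood at 192, 192, 191 and 133 CPM at day 10 and 102, 79.4, 107 and 92.2 CPM at day 17 (log2 fold change −0.89 ± 0.20, edgeR adjusted p = 0.0183). All 4 day 17 libraries were below day 10, where replicate 4 lay apart from the others. The call was lost without vehicle day 10 replicate 3 (edgeR adjusted p = 0.0682) or day 17 replicate 2 (0.0559), or with cyclic loess (limma adjusted p = 0.138). Tnf fell by 1.17 ± 0.29, and its call was lost without any one of day 10 replicates 1, 2 and 3 (0.0656, 0.0605 and 0.0999) or day 17 replicates 2, 3 and 4 (0.0857, 0.0542 and 0.0518). Among 14 effector cytokines and chemokines 2 fell and 1 rose, with a median of −0.29, and 0 passed in either direction with cyclic loess. The one that rose was Spp1, osteopontin, from 4.10 to 34.8 CPM at day 10 to 52.1 to 224 CPM at day 17, a call lost without day 10 replicates 1, 2 or 3 (edgeR adjusted p = 0.051, 0.0599 and 0.0751) or day 17 replicate 2 (0.0649).

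Of 18 interferon gamma-induced GTPases 8 fell (44.4%) and the other 10 did not pass, with a median of −0.50. Lower were 6.57% of all 9530 genes, 13.7% of those of 128 to 256 CPM and 27.8% of those of at least 256 CPM. Gbp9, a guanylate-binding protein, gave 307, 315, 371 and 248 CPM at day 10 and 183, 186, 199 and 186 CPM at day 17 (log2 fold change −0.72 ± 0.11, edgeR adjusted p = 0.00271), with no overlap. It was called in all 8 fits that left out a vehicle library and with cyclic loess. Gbp10 fell by 0.78 ± 0.16, Irgm2, an immunity-related GTPase, by 0.78 ± 0.18 and Gbp2 by 0.54 ± 0.14. Without vehicle day 10 replicate 3 the calls of Gbp10 (edgeR adjusted p = 0.06), Irgm2 (0.0926) and Gbp2 (0.102) were lost, and that of Gbp2 also without day 10 replicate 2 (0.0724) or day 17 replicates 2 and 3 (0.0714 and 0.0582). The list count was 1 without day 10 replicate 3, 3 without day 10 replicate 2 or day 17 replicate 2, 4 without day 10 replicate 1 or day 17 replicate 3, and 14 without day 10 replicate 4. It was 3 with library size alone and 1, Gbp9, with cyclic loess. Copies of this family resemble each other, so counts of single members are uncertain. Among 39 type I interferon response genes 4 fell (10.3%, against 6.57% of all 9530 genes), with a median of −0.35. They were Ifit3, Rtp4, Zbp1 and Ddx58, which encode an antiviral effector, a receptor chaperone and sensors of nucleic acids. The count was 0 without day 10 replicates 2 or 3 or day 17 replicates 2, 3 or 4, 12 without day 10 replicate 4 and 8 without day 17 replicate 1. It was 0 with library size alone or cyclic loess.

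The promoters of Irgm2 and Gbp2 are shown as members of the GTPase list with a RefSeq window, with the interferon-stimulated response element in capitals. It was searched on both strands as GAAA, any 2 bases and GAAA again.
Irgm2, chr11:58214727-58214976, plus strand: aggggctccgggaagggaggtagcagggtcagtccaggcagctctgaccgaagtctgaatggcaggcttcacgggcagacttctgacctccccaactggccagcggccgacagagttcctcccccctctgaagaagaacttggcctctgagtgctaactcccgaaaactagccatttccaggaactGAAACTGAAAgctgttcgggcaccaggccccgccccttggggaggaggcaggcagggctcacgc
Gbp2, chr3:142620413-142620662, plus strand: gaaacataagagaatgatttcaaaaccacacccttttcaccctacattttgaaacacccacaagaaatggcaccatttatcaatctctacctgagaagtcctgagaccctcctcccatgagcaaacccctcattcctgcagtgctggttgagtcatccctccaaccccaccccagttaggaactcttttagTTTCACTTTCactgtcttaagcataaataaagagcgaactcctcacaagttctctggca
The match began 64 bases before the start in Irgm2 and 59 bases before it in Gbp2. Of the 10 list members of at least 16 CPM with a window 9 held a match (90%), against 3.46% of all genes with a window and 3.98% of the genes called lower. Matches of the interferon and heat shock motifs overlapped in 28 of the 27025 genes.

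Some genes of the TGF-beta pathway fell. Smad4, the common partner of receptor-activated SMADs, stood at 225, 229, 221 and 218 CPM at day 10 and at 124, 118, 99.6 and 112 CPM at day 17 (log2 fold change −0.98 ± 0.16, edgeR adjusted p = 0.00359), and the days were far apart. Smad7, the inhibitory SMAD, stood at 324, 284, 307 and 296 and then 202, 145, 178 and 185 CPM (−0.77 ± 0.11, edgeR adjusted p = 0.00259). Tgif1, a SMAD corepressor, fell by 0.71 ± 0.12, and Tgfbr2, the type II receptor, by 0.48 ± 0.10, lost without vehicle day 10 replicate 3 (edgeR adjusted p = 0.0505). Ltbp3, which stores latent TGF-beta in the matrix, went the other way, from 0.611, 2.85, 1.17 and 9.15 to 19.4, 44.5, 74.1 and 10.6 CPM (3.39 ± 0.74), a call lost without day 10 replicate 3 (0.0659). Ltbp3 averaged under 16 CPM at day 10 and was kept through day 17, so the minimum fixed its direction. Of the 11 genes of the signalling list 4 fell (36.4%), the fourth being Skil, a SMAD corepressor. The 1 that rose was Ltbp3, and the list median was −0.34. Lower were 6.57% of all 9530 genes, 13.7% of those of 128 to 256 CPM and 27.8% of those of at least 256 CPM. Skil was not called without day 10 replicate 3 (0.0884) or day 17 replicate 2 (0.0592). Smad4, Smad7 and Tgif1 were called in all 8 fits that left out a vehicle library and with cyclic loess. Pmepa1, a TGF-beta-induced inhibitor of the pathway, was singled out after its values were seen as one of 19 genes called in all 20 alternatives, and stood at 117, 113, 102 and 122 and then 55.1, 59.0, 53.3 and 50.4 CPM (−1.06 ± 0.23).

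Cytokine and costimulatory receptors, survival factors and transcription factors held further lower genes. Their counts are to be set beside the 13.7% lower among genes of 128 to 256 CPM and the 27.8% among those of at least 256 CPM. Of 19 cytokine receptors 4 fell (21.1%, against 6.57% of all 9530 genes). They were Il21r, by 0.56 ± 0.11, Il4ra, by 0.52 ± 0.10, the TGF-beta receptor gene above, and Il18r1. That count was 2 without day 10 replicate 3, 7 without day 17 replicate 1, 1 with library size alone and 0 with cyclic loess. Of 11 costimulatory and death receptors Icos, an inducible costimulator, fell by 0.68 ± 0.12 and Tnfrsf1b, TNF receptor 2, by 0.47 ± 0.10, the latter lost without vehicle day 10 replicate 3 (edgeR adjusted p = 0.0587). Tnfrsf4, OX40, rose by 0.94 and lost its call without day 10 replicates 2 or 3 (0.0525 and 0.0803) or day 17 replicates 3 or 4 (0.0583 for each). Of 11 BCL2 family genes 4 fell (36.4%, against 6.57% of all 9530 genes), including the survival factor Mcl1 (525 ± 27.3 to 367 ± 21 CPM, −0.52 ± 0.09) and the death factor Bcl2l11, known as BIM (498 ± 44.1 to 301 ± 39.5 CPM, −0.72 ± 0.11). The other 2 were Bcl2a1b and Bcl2a1d, near-identical survival genes. Without day 10 replicate 3, day 10 replicate 1 or day 17 replicate 2, or with library size alone, the BCL2 family count was 2, and with cyclic loess 0. Of 23 transcription factors of effector, memory and exhausted cells 4 fell (17.4%, against 6.57% of all 9530 genes). They included Runx3 and Satb1, which act in CD8 lineage and chromatin organisation. Foxo1, which sustains quiescence, fell by 0.68 ± 0.11, and Tcf7, TCF-1 of stem-like cells, by 0.42 ± 0.12 (edgeR adjusted p = 0.0463), lost without any one of day 10 replicates 1, 2 and 3 (0.0823, 0.115 and 0.0957) or day 17 replicates 2, 3 and 4 (0.0833, 0.0595 and 0.0591). That count was 2 without day 10 replicate 1, 1 without day 10 replicates 2 or 3 or day 17 replicates 2 or 3, 7 without day 17 replicate 1, 1 with library size alone and 0 with cyclic loess. Tox, a factor of exhausted cells, stood at −0.08 ± 0.18, above 0 with library size alone, with only genes of at least 16 CPM in the fit and with cyclic loess.

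Of 18 inhibitory receptors 0 passed edgeR in either direction, with a median of −0.12, and 2 were higher and 5 lower at an unadjusted p under 0.05. DESeq2 and limma-voom with quality weights each called 1 lower. Without day 17 replicate 1 edgeR called 4 lower, and without day 10 replicate 1 or 4 it called 1. Pdcd1, PD-1, stood at 469, 441, 377 and 371 CPM at day 10 and 342, 365, 338 and 403 CPM at day 17 (−0.20 ± 0.10, edgeR adjusted p = 0.227), overlapping, and above 0 with cyclic loess. Havcr2, TIM-3, stood at −0.42 ± 0.20 (0.19) and Lag3, a receptor for MHC class II, at 0.71 ± 0.29 (0.139). Of the 18 naive and memory homing genes 0 passed edgeR, with a median of −0.30, and 8 were lower at an unadjusted p under 0.05. DESeq2 called 2 and limma-voom 3 lower, and edgeR called 4, 2 and 3 lower without day 10 replicate 4, day 17 replicate 1 and day 17 replicate 4. Il7r, the IL-7 receptor, stood at −0.23 ± 0.13 (0.272), passed as lower without day 17 replicate 4 (0.0246) and was above 0 with cyclic loess.

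Cytotoxic granule genes fell in 3 of 16 cases (18.8%), with a median of −0.37. Lower were 6.57% of all 9530 genes, 13.7% of those of 128 to 256 CPM and 27.8% of those of at least 256 CPM. Gzmk, granzyme K of memory-like effector cells, stood at 142, 151, 159 and 134 CPM at day 10 and at 112, 97.1, 76.2 and 70.0 CPM at day 17 (−0.72 ± 0.16, edgeR adjusted p = 0.0153), without overlap, a call lost without day 10 replicate 3 (0.0631). Serpinb9, the inhibitor of granzyme B, fell by 0.62 ± 0.12, and Serpinb6b, another granule-related serpin, by 0.73, lost without day 10 replicate 3 (0.0694). The list count was 1 without day 10 replicate 3, 5 without day 10 replicate 4, 6 without the shallowest library and 0 with cyclic loess, where Gzmk stood at a limma adjusted p of 0.056. Gzmb, granzyme B, stood at 298, 240, 357 and 268 and then 210, 194, 196 and 148 CPM (−0.63 ± 0.25, edgeR adjusted p = 0.125). Its days did not overlap, and it passed with only the vehicle libraries in the fit (0.0323) or without the shallowest library, entinostat day 17 replicate 3 (0.014). Prf1, perforin, stood at −0.22 ± 0.15 (0.348), overlapped, and was above 0 with cyclic loess.

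The other lower genes of smallest p came from several functions. Mxd1, a MAX partner that opposes MYC, fell from 588 ± 79.2 to 310 ± 38.0 CPM (−0.92 ± 0.12, edgeR adjusted p = 0.00103), and Tob1, an antiproliferative protein of resting T cells, fell by 0.87 ± 0.12. Crem, a cyclic AMP-responsive factor, fell by 0.82 ± 0.11 and Pde3b, a cyclic AMP phosphodiesterase, by 0.88 ± 0.12. Gna13, a G protein alpha subunit, fell by 0.72 ± 0.10, Zdhhc18, a palmitoyltransferase, by 0.72 ± 0.09 and Tnks2, a tankyrase, by 0.73 ± 0.10. Coq10b, a coenzyme Q-binding protein, fell by 0.82 ± 0.11, Slain1, a microtubule-associated protein, by 0.99 ± 0.15 and Tcp11l2 by 0.66 ± 0.09. Mex3c, an RNA-binding ubiquitin ligase, stood at 116, 128, 117 and 123 CPM at day 10 and at 56.3, 42.4, 51.5 and 39.8 CPM at day 17 (−1.34 ± 0.17, edgeR adjusted p = 0.00103). Pds5a, a cohesin regulator, fell by 0.98 ± 0.15. All of these held without each vehicle library in turn.

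Named after their values were seen, from the 19 genes called in all 20 alternatives, Mbd2, a reader of methylated DNA, stood at 167, 162, 178 and 150 and then 67.8, 88.1, 65.6 and 55.9 CPM (−1.24 ± 0.20), Sirt1, a protein deacetylase, fell by 1.21 ± 0.19 and Icam1, the adhesion ligand of LFA-1, by 0.83 ± 0.12. Icam1 stood at 403, 301, 413 and 290 CPM at day 10 and at 217, 176, 217 and 181 CPM at day 17. For each of the 3 genes the days did not overlap.

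**Figure D4:**
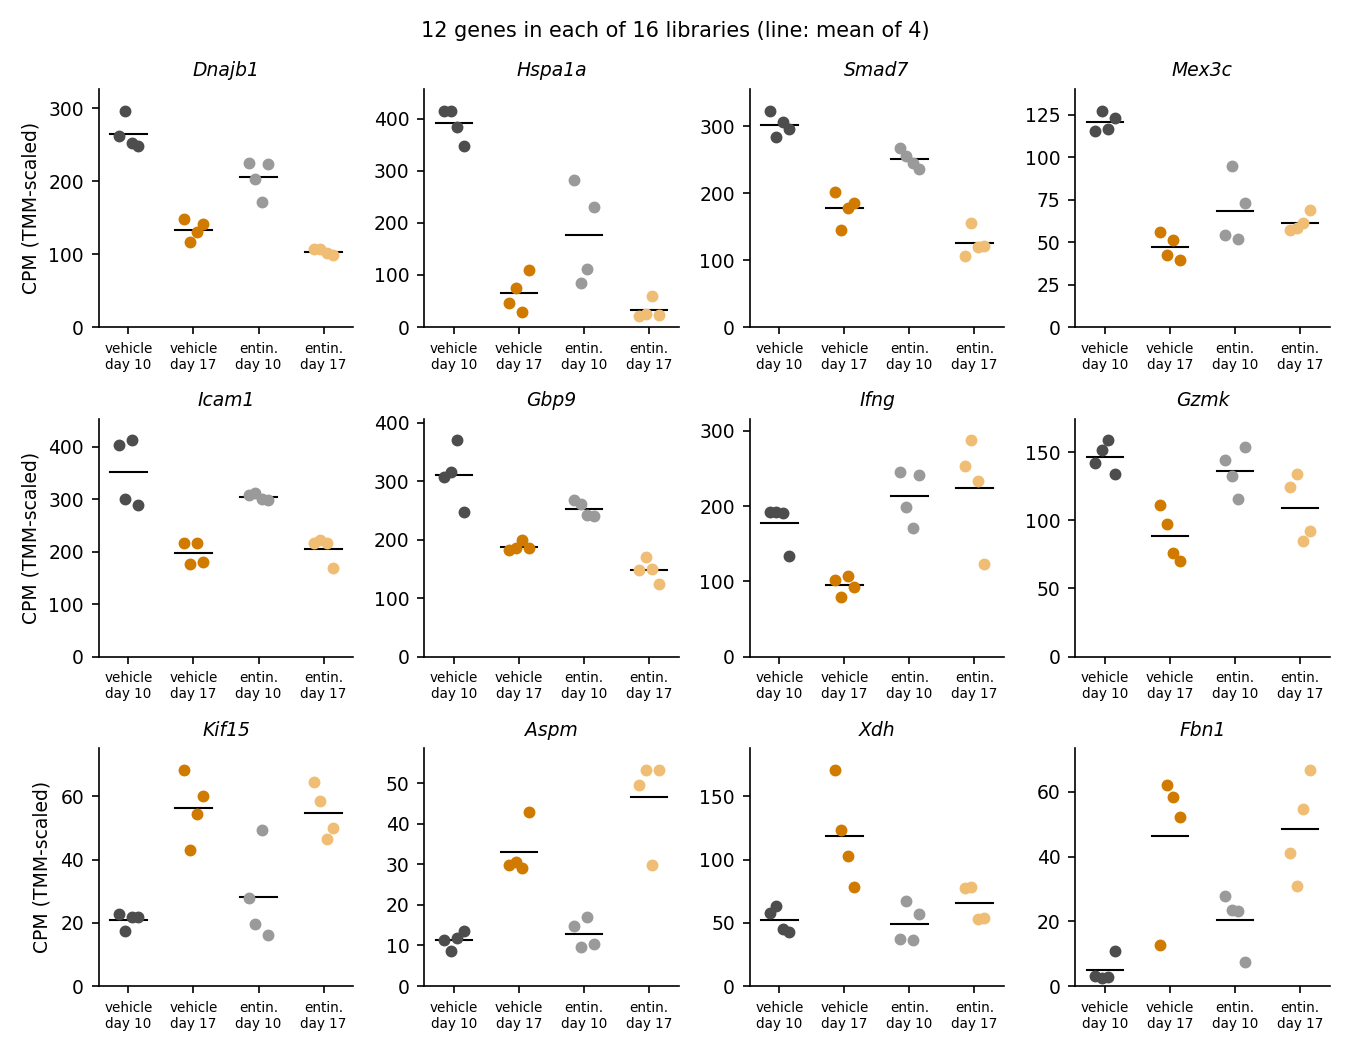
CPM (y axis, from 0) of 12 genes in each of the 16 libraries, one point per library, with the mean of 4 as a line, for vehicle and entinostat (entin.) at day 10 and day 17. The first 8 genes have every vehicle day 17 library below every vehicle day 10 library (Hspa1a at 29.3 to 110 against 349 to 416 CPM), and Kif15, Aspm, Xdh and Fbn1 have every one above. Aspm and Fbn1 averaged under 16 CPM at day 10 and were kept through day 17, which fixed their direction.

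Some genes of cell division rose. Of 25 mitosis genes 6 rose (24%, against 1.03% of all 9530 genes) and the other 19 did not pass, with a median of 0.91. Of these 25, 8 averaged under 16 CPM at day 10 and were kept through day 17, 1 of them called. The other 17 had a median of 0.86, with 5 called. Mki67, Ki-67, stood at 64.8, 48.5, 88.2 and 90.2 CPM at day 10 and 167, 106, 149 and 140 CPM at day 17 (log2 fold change 0.95 ± 0.21, edgeR adjusted p = 0.016), without overlap, a call lost without day 10 replicate 1 (0.0502) or replicate 2 (0.0563). Cenpf, a kinetochore protein, rose by 1.93 ± 0.45, with overlapping days, and lost its call without day 10 replicates 1, 2 or 3 (0.0569, 0.0682 and 0.0857) or day 17 replicate 4 (0.0513). The count was 0 without day 10 replicates 1 or 2, 1 without day 10 replicate 3 or day 17 replicate 4, 2 without day 17 replicates 1, 2 or 3, and 14 without day 10 replicate 4. It was 1, Mki67, with cyclic loess. Outside the list, Kif15, a spindle kinesin, stood at 22.9, 17.4, 21.7 and 21.7 and then 68.4, 42.9, 54.3 and 60.0 CPM (1.43 ± 0.28, edgeR adjusted p = 0.00841). Aspm, a spindle pole protein, rose by 1.54 ± 0.27, Kiz, a centrosomal protein, by 1.08 ± 0.18, and Rad54l, of recombination repair, by 1.14 ± 0.24. Aspm averaged under 16 CPM at day 10 and was kept through day 17, so the minimum fixed its direction. The day 10 level of Rad54l is not given here. Of 24 DNA replication genes 1 rose (4.17%, against 1.03% of all 9530 genes), with a median of 0.14. It was Rrm2, a ribonucleotide reductase subunit, by 0.80, not called without day 10 replicates 2 or 3 (0.137 and 0.149) or any one of day 17 replicates 1 to 4 (0.0578, 0.0783, 0.0925 and 0.0502). Whether the dividing cells were T cells was not tested. Of 27 cholesterol and lipid synthesis genes 0 passed edgeR, with a median of 0.35, and 4 were higher and 1 lower at an unadjusted p under 0.05. DESeq2 called 1 higher and 1 lower, limma-voom 2 and 1, and edgeR 1 lower without day 17 replicate 1.

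Matrix and stromal genes were among the genes that rose. Thbs2, the matrix protein thrombospondin 2, had 7, 2, 4 and 9 counts at day 10 and 96, 222, 249 and 299 at day 17, or 0.518 to 2.35 and 14.4 to 103 CPM (log2 fold change 5.25 ± 0.99, edgeR adjusted p = 0.00739). Fbn1, fibrillin-1, stood at 3.06, 2.59, 2.93 and 11.0 and then 12.8, 61.9, 58.4 and 52.1 CPM (3.22 ± 0.55). Day 10 replicate 4 and day 17 replicate 1 were the nearest pair. Thbs2 and Fbn1 averaged under 16 CPM at day 10 and were kept through day 17, so the minimum fixed their direction. Fzd1, a Wnt receptor, rose by 4.46 ± 0.86. Its day 10 level is not given here, and 62 of the 98 higher genes were kept through day 17, so its direction may also have been fixed. Of 10 fibroblast markers at this level 4 passed as higher, all of them under 16 CPM at day 10 and kept through day 17, so that the minimum fixed their direction. Col3a1, a fibrillar collagen chain, stood at 2.07 to 6.11 CPM at day 10 and at 7.22, 12.4, 29.9 and 720 CPM at day 17, Col1a2 at 0.306 to 5.23 and at 2.56, 9.53, 4.12 and 278 CPM. Both were high in day 17 replicate 4 alone, and without it neither was called (edgeR adjusted p = 0.0842 and 0.301). Their calls were also lost without day 10 replicates 2 (0.0549 and 0.082) or 3 (0.0644 and 0.0954), and that of Col1a2 without replicate 1 (0.072). Pdgfrb, a growth factor receptor of mesenchymal cells, rose by 2.94 ± 0.85 and lost its call without any one of day 10 replicates 1, 2 and 3 (0.115, 0.119 and 0.139) or day 17 replicates 2, 3 and 4 (0.0915, 0.0914 and 0.098). The count of 4 was 2 without day 10 replicate 1, 1 without day 10 replicates 2 or 3 or day 17 replicate 4, 7 without day 10 replicate 4 or day 17 replicate 1, and 0 with cyclic loess. The summed fibroblast markers given above include Fbn1, Col3a1, Col1a2 and Pdgfrb, so a shared rise is partly built in. At day 17 the sums were 609, 2100, 2116 and 2697 CPM, of which Fn1 held 271, 1465, 1341 and 602 CPM. They did not follow the 2 collagen genes, which were high in replicate 4 alone. What part cells with these markers had in the other rises was not tested.

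The other higher genes of smallest p were of varied kinds. Synpo, an actin-associated protein, stood at 23.5, 26.2, 11.1 and 29.5 CPM at day 10 and at 74.3, 76.2, 82.9 and 72.7 CPM at day 17 (1.76 ± 0.23, edgeR adjusted p = 0.00163), with all day 17 libraries close together and above. Il1r2, the decoy receptor of interleukin-1, stood at 4.28, 5.96, 2.64 and 5.75 and then 36.4, 14.3, 47.1 and 43.6 CPM (2.91 ± 0.49). Il1r2 averaged under 16 CPM at day 10 and was kept through day 17, so the minimum fixed its direction. It is also on the neutrophil list, whose sum of 11 markers was 5.40 to 24.4 CPM at day 10 and 39.0 to 80.9 CPM at day 17. Of that sum Il1r2 alone held 14.8 to 44.7 CPM at day 17 (scaled by library total), and the gap between the days rested on it. S100a8, a defining neutrophil gene, was at most 5.83 CPM. Xdh, xanthine dehydrogenase of purine breakdown, stood at 57.4, 63.2, 45.1 and 42.9 and then 171, 124, 103 and 78.5 CPM (1.19 ± 0.24), one of 2 higher genes, with Kif15, called in all 20 alternatives. Pck2, the mitochondrial phosphoenolpyruvate carboxykinase, rose by 1.83 ± 0.33, Serpina3g, a protease inhibitor of activated lymphocytes, by 1.84 ± 0.35 and Exph5, a Rab27 effector, by 3.50 ± 0.65. Ndrg1, a hypoxia-induced gene, rose by 1.20 ± 0.25 and Bace2, an aspartyl protease, by 2.57 ± 0.55, calls lost without day 10 replicate 3 (edgeR adjusted p = 0.0533 and 0.0612). Of 24 glycolysis and hypoxia genes Ndrg1 alone passed (4.17%, against 1.03% of all 9530 genes). The list median was −0.11, and 1 was higher and 5 lower at an unadjusted p under 0.05. Day 10 levels of Pck2, Serpina3g, Exph5 and Bace2 are not given here. For any that averaged under 16 CPM at day 10, the minimum fixed the direction.

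The entinostat course, measured in 8 other libraries, served to place these changes. Of the 9530 genes 2067 passed there (21.7%), 1771 lower (18.6%) and 296 higher (3.11%). Of the 626 genes lower with vehicle, 362 were also lower with entinostat and 5 were higher. Of the 98 higher with vehicle, 22 were higher with entinostat and the rest did not pass. The difference of the courses passed for 21 of the 724 genes (2.9%), against 0.829% of all 9530. The 724 were chosen by the vehicle change that this difference subtracts, so a higher share among them is built in. Dnajb1 fell by 0.99 in both courses, and Hspa1a by 2.60 with vehicle and 2.70 with entinostat. Smad7 fell by 0.77 and 0.99.

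A few genes differed between the courses by the interaction test. Mbd2 fell by 1.24 with vehicle and rose by 0.62 with entinostat, a difference of 1.86 (edgeR adjusted p = 0.0111). The other 4 genes with opposite calls, named after their values were seen, were Ybx3, an RNA-binding protein (−0.71 and 0.68), Setd8, a histone H4 methyltransferase (−0.63 and 0.74), Akt1, a kinase (−0.54 and 0.47), and Rac1, a small GTPase (−0.33 and 0.38). All 4 differences passed (0.0161, 0.0161, 0.0279 and 0.0279). The vehicle calls of all 4 were lost without day 10 replicate 3 (0.0644, 0.0888, 0.0835 and 0.129). That of Rac1 was also lost without day 10 replicates 1 or 2 (0.0698 and 0.0716) or day 17 replicates 2 or 4 (0.068 and 0.0632), and that of Setd8 without day 10 replicate 2 (0.0717) or day 17 replicates 2, 3 or 4 (0.0507, 0.0526 and 0.052). Mex3c and Pds5a fell with vehicle and stood at −0.16 and 0.18 with entinostat (0.0423 and 0.0264). Synpo and Kiz rose with vehicle and stood at 0.20 and −0.18 with entinostat (0.0455 and 0.0434). Fosl2 fell further with entinostat, by 1.69 (0.0146). Perforin (Prf1), granzyme B (Gzmb) and the inhibitory receptor gene Havcr2 rose with entinostat by 1.55, 1.08 and 1.84 and did not pass with vehicle, differences of 1.78, 1.71 and 2.26 (0.00138, 0.0423 and 0.00138). Ifng stood at 0.07 with entinostat, and its difference from vehicle of 0.96 did not pass (0.139). In all, 13 of the 99 genes whose courses were compared one by one differed between the courses, 8 without vehicle day 10 replicate 1 and 6 without replicate 3.

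**Figure D5:**
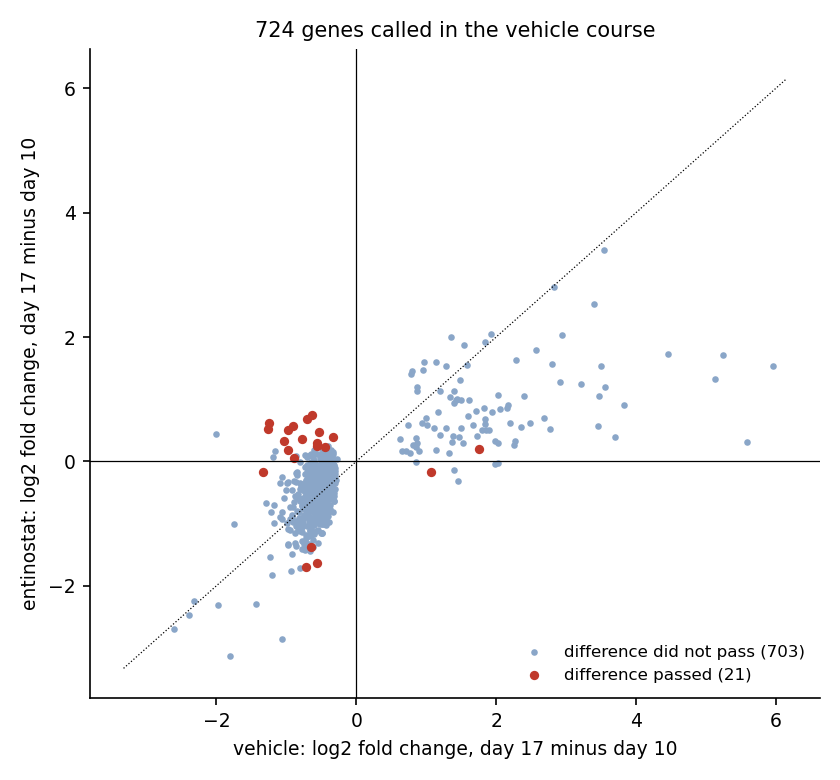
Log2 fold change of day 17 against day 10 with entinostat (y axis) against that with vehicle (x axis) for the 724 genes called with vehicle, with the 21 genes whose difference passed in red and equality as a dotted line. Most points lie in the lower left quadrant, with medians of −0.52 (vehicle) and −0.45 (entinostat) for the 626 lower genes.

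Called genes were longer than the rest. The median exonic length was 4306 bases for lower genes, 4935 for higher genes and 3358 for those not called, with GC contents of 47.6%, 47.7% and 49.2%. The share of lower genes was 2.42% among genes of under 1925 bases and 9.41% among those of at least 5703 bases. Actb, the beta-actin gene often taken as a reference, stood at 830, 738, 817 and 744 CPM at day 10 and 491, 718, 722 and 852 CPM at day 17 (−0.17 ± 0.31, edgeR adjusted p = 0.744), with overlapping days, and above 0 with cyclic loess.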

How the data were processed

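RNA of sorted cells was turned into cDNA by SMART-seq v4 and into libraries by Nextera XT, per the labels' protocols. The kit marks neither strand nor PCR copies, so overlapping genes cannot be separated and counting error is a lower limit of the error. The authors deposited whole-number counts per gene, not scaled between libraries, and the submitters' processing notes name STAR and mm10. The counting program is not given in the sources used here. Of 24028 genes 23968 matched RefSeq of GRCm38.p6, the build of mm10, by Entrez identifier, which gave positions. Exonic lengths came from the GENCODE annotation of that build.

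Groups came from the labels, 4 groups of 4 libraries. Genes were filtered with filterByExpr (minimum count 10), which left 17414. The test was the quasi-likelihood test of edgeR 4.0.16 (R 4.3.3), fitted to all 16 libraries with TMM factors and a mean for each group, which left 12 residual degrees of freedom. The common biological coefficient of variation was 0.38. Benjamini-Hochberg adjustment at 0.05 ran over all genes tested, and bare values in brackets after a log2 fold change or a left-out library are these adjusted p-values. Errors are SE for log2 fold changes and SD for CPM (n = 4). The script was tested on simulated counts. Alternatives were DESeq2 1.42.0, limma 3.58.1 (voom with quality weights, and with cyclic loess), other scalings, filters and minimum levels, a receptor-read covariate, a replicate block, and leaving out single libraries. Cyclic loess and the fit on genes of at least 16 CPM were chosen after seeing the data.

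The genes and lists were chosen with earlier results of these data known. Named are the 15 higher and the 15 lower genes with the smallest p-values, without receptor segments and unnamed models, up to 5 members of smallest p of each list described, a fixed set (Cd8a, Cd8b1, Cd3e, Cd4, Mki67, Gzmb, Prf1, Ifng, Pdcd1, Havcr2, Lag3, Tox, Tcf7, Il7r and Actb), and genes said to be chosen after their values were seen. Runs of promoter letters are RefSeq's.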

Additional observations from a re-analysis of the deposited data

Results flagged for a closer look

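Of 198 groups of 4 libraries tested for a sample apart from the rest, 11 were marked (5.56%), and chance marks about 1 in 20. Day 17 replicate 4 stood far above the other day 17 libraries for Col3a1 (720 against 7.22 to 29.9 CPM) and Col1a2 (278 against 2.56 to 9.53 CPM), and less far for Aspm (42.9 against 29.1 to 30.4 CPM). Day 10 replicate 4 stood apart from its day for Fbn1 (11.0 against 2.59 to 3.06 CPM), Pdgfrb (14.6 against 0.518 to 1.53 CPM), Ptpn22 (425 against 511 to 518 CPM) and Ifng (133 against 191 to 192 CPM). In each of these 4 genes it lay on the side of the day 17 libraries. Day 17 replicate 1 was above its day for Sh2d2a (394 against 316 to 321 CPM). Day 17 replicate 2 stood apart for Bcl2a1b (58.8 against 68.9 to 70.0 CPM), Rtp4 (77.0 against 68.9 to 69.3 CPM) and Tnfrsf4 (65.1 against 102 to 103 CPM).

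The change over time differed between entinostat and vehicle, by the edgeR interaction test, in 13 named genes. On the log2 scale the entinostat course minus the vehicle course was positive for Mbd2 (1.86), Havcr2 (2.26), Prf1 (1.78), Gzmb (1.71), Ybx3 (1.38), Setd8 (1.37), Mex3c (1.18), Pds5a (1.16), Akt1 (1.01) and Rac1 (0.72). It was negative for Synpo (−1.55), Kiz (−1.25) and Fosl2 (−0.97).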

How the results depend on the processing

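Calls among the 9530 genes (724, of which 98 higher and 626 lower) ranged from 183 to 1676 when single vehicle libraries were left out, with 18 to 260 higher and 165 to 1468 lower. The differences between courses among the named genes (13) then ranged from 6 to 11. DESeq2 called 1337 (227 higher, 1110 lower) and 23 differences, limma-voom with quality weights 1905 (433 and 1472), library size alone 311 (113 and 198), limma-voom with cyclic loess 151 (33 and 118), and the fit on genes of at least 16 CPM 457 (147 and 310). With a minimum of 8 CPM 167 were higher, and with 32 CPM 41 were. RLE scaling, no filter, only the vehicle libraries, the receptor covariate and leaving out the shallowest library kept the total between 564 and 984. Of the 724 genes, 76 were called both in all 8 fits without a vehicle library and with cyclic loess (8 higher, 68 lower). Signs turned for genes that were not called. With cyclic loess Prf1 stood at 0.081, Cd8a at 0.14, Cd8b1 at 0.0103, Cd3e at 0.0200, Pdcd1 at 0.14, Tox at 0.10, Il7r at 0.0738 and Actb at 0.17. Tox stood at 0.0626 with library size alone and at 0.0536 with only genes of at least 16 CPM. The cause of these moves was not tested.

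Same-numbered vehicle libraries of the 2 days correlated at −0.07, −0.32, −0.14 and −0.16 in their deviations from the group means. Such deviations cancel out within a group of 4, so these values cannot decide whether replicate numbers pair the libraries. With the replicate number as a block 692 genes were called (134 higher, 558 lower). With that block and only the 8 vehicle libraries in the fit 27 were (5 higher, 22 lower). Counting error is largest in vehicle day 17 replicate 4, the shallowest of the 8 (2842099 counts), and for low levels such as the 2 to 9 counts of Thbs2 at day 10.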
